A study of Mus musculus with 9 samples.

Results

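Ribosomal proteins are the protein parts of the 2 kinds of ribosome in a macrophage, the cytosolic ribosome that translates nuclear mRNAs and the mitochondrial ribosome that translates the few mRNAs of the mitochondrial genome. The genes described here were chosen by name and biotype. A protein coding gene counted as cytosolic where its symbol begins with Rpl or Rps and a digit, with Rpsa added and the Rps6k kinases left out, and as mitochondrial where its symbol begins with Mrpl or Mrps and a digit. The rule took 169 of the 54532 genes of the deposited table, 91 cytosolic (35 of the small and 56 of the large subunit) and 78 mitochondrial (29 small, 49 large). Of these, 162 were tested, having 3 or more of the 9 libraries at 1 FPKM or above, 85 cytosolic and 77 mitochondrial, among 10858 tested genes in all. FPKM counts fragments per kilobase of the gene after scaling of each library.

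The cells were primary bone marrow-derived macrophages of wild-type (WT) mice, kept for 48 h on 1 of 3 implant materials, with 3 libraries each. The materials were cp titanium (cpTi), the metallic glass Zr61Cu25Al14 without tantalum (Ta0) and the metallic glass Zr58Cu25Al14Ta3 with tantalum (Ta3), and no library from any other surface was analysed here. The NEBNext Ultra libraries were of poly(A) RNA from TRIzol extracts. The labels also carry the word xenograft as the tissue. Whether replicates are different mice or cultures is not stated, so p-values speak to the spread among these libraries alone, and it may be technical. The table's columns were tied to the glasses by composition, and a reversed reading would swap Ta0 and Ta3.

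Each ribosome has a small subunit that reads the mRNA and a large subunit that joins amino acids. Cytosolic ribosomal protein genes are transcribed at high rates, and many of their mRNAs start with a C followed by a run of pyrimidines, the 5′ terminal oligopyrimidine tract through which growth signalling by mTORC1 controls their translation. Mitochondrial ribosomal proteins are also made in the cytosol and then imported. They are joined by rRNA of the mitochondrial genome to make the subunits of the respiratory chain that this genome encodes.

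The 2 classes differ in the letters at their annotated transcription starts, which are shown here because the tract is the known mark of the cytosolic class. RefSeq promoter entries on GRCm38.p6 were found for 64 cytosolic and 69 mitochondrial genes. A C followed by at least 4 C or T at the annotated start base, on the gene's strand, was present in 13 of the 64 cytosolic genes (20.3%) and in 0 of the 69 mitochondrial genes, against 3.01% of all 27025 genes with an entry and 2.97% of the 7870 tested genes with an entry. Each line gives 10 bases before and 20 from the annotated start base, with the tract in capitals. The first 4 are cytosolic genes with long tracts at the start, picked after the letters were seen.
Rpl15, chr14:18270967-18270996, minus strand: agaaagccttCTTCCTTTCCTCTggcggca
Rpl35, chr2:39005112-39005141, minus strand: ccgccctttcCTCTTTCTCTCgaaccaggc
Rps6, chr4:86857348-86857377, minus strand: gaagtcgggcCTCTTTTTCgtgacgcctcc
Rps18, chr17:33955646-33955675, minus strand: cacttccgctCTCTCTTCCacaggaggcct
At the annotated start bases the tract was found in only part of the class, and whether these bases are the starts used was not tested. The annotated start base lay 137 bases from the deposited gene end in Rpl41 and 164 bases in Rps23. Of the abundant cytosolic members Rpl41, Rpl19, Rps3a1, Rps15 and Rps23, none carries one at the annotated start base, as in Rpl41 and Rpl19, where in the latter a run begins 5 bases before it.
Rpl41, chr10:128549149-128549178, minus strand: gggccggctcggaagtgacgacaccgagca
Rpl19, chr11:98026700-98026729, plus strand: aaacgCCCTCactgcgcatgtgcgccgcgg
The next 3, chosen by abundance like the last pair, belong to mitochondrial members and carry no tract at the start base. In Mrpl52 a run of 5 bases begins 2 bases after it, as long as the run in Rpl19.
Mrps21, chr3:95871495-95871524, minus strand: ctcccgtcgcgggactccgtagcttccgct
Mrpl20, chr4:155802868-155802897, plus strand: ttcggaagagctgtcagtgctcttaaccct
Mrpl52, chr14:54426899-54426928, plus strand: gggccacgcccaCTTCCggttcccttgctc
Within 5 bases of the annotated start the same letters stood in 45.3% of the cytosolic, 24.6% of the mitochondrial and 23.9% of the tested genes. The whole promoter entries were also searched on both strands for ACTTCCGG (the ETS factor family), AAGATGG (YY1) and CGCATGCG (NRF1). ACTTCCGG was found in 18.8% of the cytosolic, 17.4% of the mitochondrial and 10.5% of the tested genes, AAGATGG in 15.6%, 18.8% and 9.15%, and CGCATGCG in 4.69%, 10.1% and 4.80%. These are matches of letters, with no measure of binding.

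Libraries of the same material differed widely before any material is compared. Rebuilt read totals were alike, 15517877 to 18689963 per library, but Ta0 replicate 1 and Ta3 replicate 3 had 15678 and 13466 genes above 0 FPKM where the others had 18156 to 20635. When a library's deviations were regressed on log2 gene length, the slope ran from -0.23 in Ta0 replicate 1 and -0.21 in Ta3 replicate 3, where short genes are high, to 0.21 and 0.27 in replicates 3 of cpTi and 2 of Ta3. All 10 macrophage markers passed the filter, and their summed level was 11210 to 40900 FPKM, while the T and NK cell and the endothelial lists had 0 tested members. Only 1 of 7 neutrophil markers was tested, with the list at 74.4 to 102 FPKM on cpTi, 21.2 to 33.7 on Ta0 and 18.04 to 21.6 on Ta3. Since 6 of these 7 genes averaged under 1 FPKM, the sums rest mostly on 1 gene. Of 6 fibroblast markers 5 were tested, with the list at 27.6 to 49.9 FPKM over all libraries. Of 5 B cell markers 2 were tested, at 2.43 to 12.3 FPKM, and of 5 erythroid markers 1, at 0.354 to 36.04 FPKM, with the highest value on Ta3 and 0.357 to 0.616 on cpTi. Of 6 dendritic cell markers 1 was tested, at 2.51 to 5.497 FPKM. The part of these differences in the results was not tested. In bulk RNA, fewer cells of a type and less RNA per cell cannot be told apart.

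Cytosolic ribosomal protein mRNAs took a share of reads whose range within each glass was wider than the gaps between the means of the materials. On cpTi they made up 4.99%, 7.07% and 3.41% of the rebuilt reads of replicates 1, 2 and 3. On Ta0 the shares were 17.5%, 6.80% and 9.81%. On Ta3 they were 9.32%, 2.05% and 16.1%. The highest shares were those of Ta0 replicate 1 and Ta3 replicate 3, the lowest that of Ta3 replicate 2, and the 3 materials overlapped. The means were 5.16 ± 1.84% on cpTi, 11.4 ± 5.54% on Ta0 and 9.16 ± 7.04% on Ta3 (SD, n = 3), and without Ta3 replicate 3 the Ta3 mean was 5.68%.

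Mitochondrial ribosomal protein mRNAs kept nearly the same order of libraries at a much lower level. Their share was 0.355%, 0.442% and 0.239% on cpTi, 0.684%, 0.359% and 0.471% on Ta0, and 0.432%, 0.193% and 0.650% on Ta3. The same libraries were highest and lowest, and the materials again overlapped, with means of 0.346 ± 0.102%, 0.505 ± 0.165% and 0.425 ± 0.229% (SD, n = 3).

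The cytosolic class moved further than the mitochondrial class, so that their ratio also moved. The summed FPKM of the cytosolic over that of the mitochondrial class was 15.8, 18.3 and 16.8 on cpTi, 28.7, 21.98 and 23.7 on Ta0, and 24.1, 12.4 and 28.8 on Ta3. Every Ta0 library lay above every cpTi library in this ratio, and the Ta3 libraries spanned both. The means were 17.0 ± 1.30, 24.8 ± 3.49 and 21.8 ± 8.44 (SD, n = 3). The ratio is a sum over chosen genes and was given no test.

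**Figure D1:**
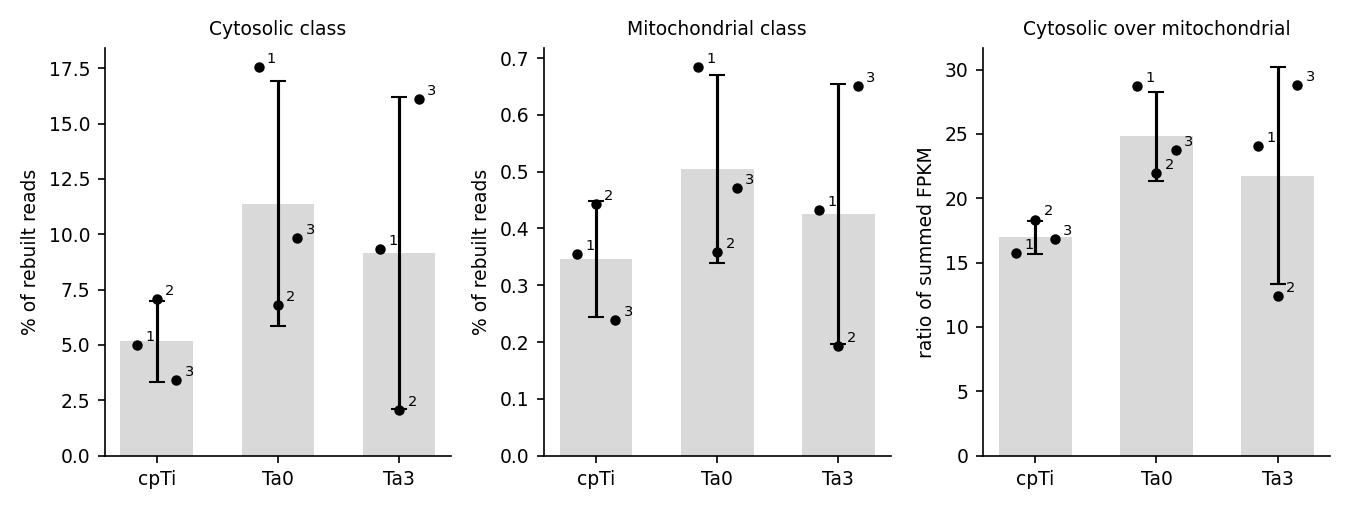
Share of rebuilt reads in cytosolic and in mitochondrial ribosomal protein genes (% of reads) and the ratio of their summed FPKM, by material; bars are means, error bars SD over 3 libraries, points single libraries with their replicate number. Cytosolic shares run from 2.05% to 17.5% and mitochondrial shares from 0.193% to 0.684%, with the same libraries at both ends, and the ratio on Ta0 lies above that on cpTi in all 3 libraries.

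Gene by gene most cytosolic members moved together, and the mitochondrial members did so less closely. Set against each gene's own mean of log2(FPKM + 1) over the 9 libraries, the median cytosolic member stood at 1.97 in Ta0 replicate 1 and 1.71 in Ta3 replicate 3, and at -2.39 in Ta3 replicate 2, with cpTi replicate 3 at -1.44. The median mitochondrial member stood at 1.16 and 0.90 in the first pair of these libraries, and at -1.11 and -0.91 in the second. From the lowest to the highest library this is 20.6-fold for the cytosolic and 4.82-fold for the mitochondrial class. The total FPKM of a library differed too, at 305491 in Ta3 replicate 2 and 312541 in cpTi replicate 3. It was 965651 in Ta3 replicate 3 and 1251570 in Ta0 replicate 1. As a percent of that total, the cytosolic class ran from 3.42% in Ta3 replicate 2 to 16.9% in Ta3 replicate 3. The mitochondrial class ran from 0.276% to 0.586% in the same libraries. Of the 85 cytosolic members, 65 were highest in Ta0 replicate 1 and 20 in Ta3 replicate 3, and 75 were lowest in Ta3 replicate 2 and 10 in cpTi replicate 3. Over all 10858 tested genes, 2410 were highest in Ta0 replicate 1 and 2024 in Ta3 replicate 3, and 2680 were lowest in Ta3 replicate 2 and 1188 in cpTi replicate 3, so these libraries were extremes for other genes too. Of the 77 mitochondrial members, 49 were highest in Ta0 replicate 1 and 25 in Ta3 replicate 3, and 54 were lowest in Ta3 replicate 2 and 20 in cpTi replicate 3.

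**Figure D2:**
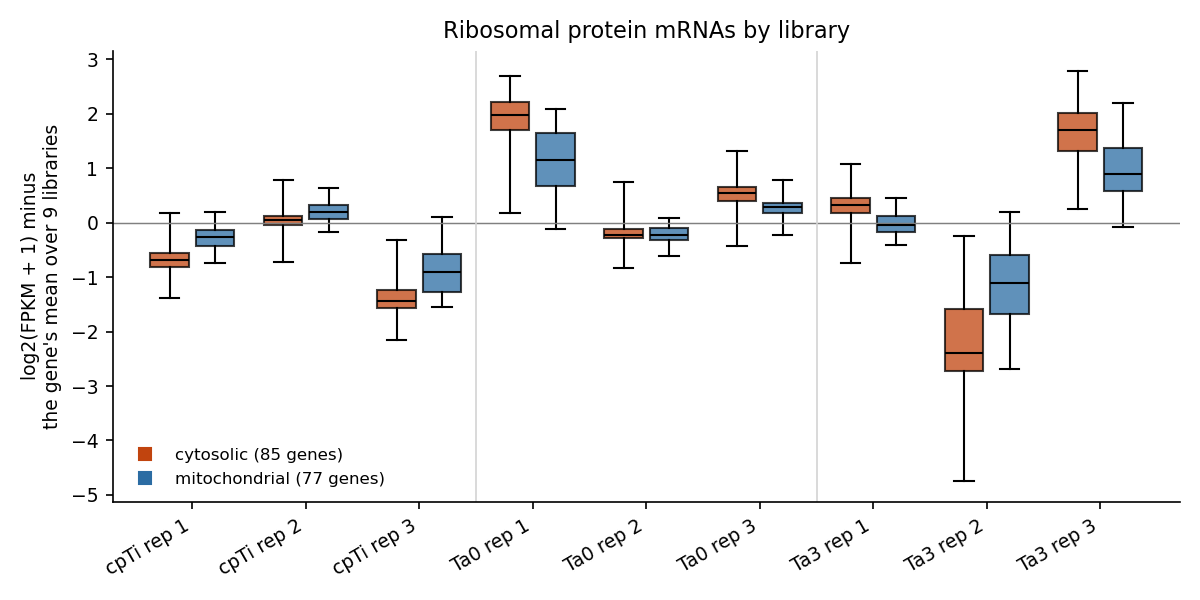
Deviation of each tested ribosomal protein gene from its own mean over 9 libraries, in log2(FPKM + 1), for the 85 cytosolic and 77 mitochondrial genes in each library; boxes show quartiles and median, whiskers the full range. Both classes are high in Ta0 replicate 1 and Ta3 replicate 3 and low in cpTi replicate 3 and Ta3 replicate 2, and the cytosolic medians reach from -2.39 to 1.97 where the mitochondrial ones reach from -1.11 to 1.16.

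Small and large subunits of a ribosome were high and low in the same libraries, with a wider spread in the large subunit of the mitochondrial ribosome, a difference that was not tested. In Ta0 replicate 1 the median deviation was 2.10 for the cytosolic small and 1.96 for the large subunit, and in Ta3 replicate 2 it was -2.49 and -2.39. For the mitochondrial ribosome the values were 1.06 and 1.23 in Ta0 replicate 1, and -0.86 and -1.29 in Ta3 replicate 2. Over all 9 libraries the median SD of log2(FPKM + 1) was 1.48 and 1.39 for the cytosolic small and large subunits and 0.69 and 0.86 for the mitochondrial ones. Of the mitochondrial members, 7 of 29 small and 25 of 48 large subunit genes (24.1% and 52.1%) lay above the 90th percentile of SD over all tested genes. The small subunit genes were also lower, with a median mean of 14.45 FPKM against 23.6 FPKM for the large subunit. In this class the SD went with level, as given below.

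Against all tested genes the cytosolic class had a wide spread. The median SD over the 9 libraries was 1.42 for cytosolic members, 0.78 for mitochondrial members and 0.33 for all tested genes, and 78 of 85 cytosolic and 32 of 77 mitochondrial members lay above the 90th percentile of all tested genes. The median ratio of the highest to the lowest library was 22.3, 5.85 and 2.47. The share of a gene's variance that lay between materials had a median of 21.9% in the cytosolic and 18.1% in the mitochondrial class, near the 23.3% of all tested genes, so most of the spread was among libraries of the same material. Genes that build or serve ribosomes had medians near that of all tested genes. The median SD was 0.26 over 27 ribosome biogenesis genes, 0.45 over 12 cytosolic translation factors, 0.23 over 12 mitochondrial translation factors and 0.30 over 20 mitochondrial ribosome assembly genes. For subunit proteins with other names it was 1.11 over 6 cytosolic and 1.05 over 5 mitochondrial genes. Some lists of genes that build or serve ribosomes also held members with a wide spread. In the order above, the highest SD was 1.41, 1.05, 0.47 and 1.11. Above the 90th percentile lay 3 of 27, 1 of 12, 0 of 12 and 1 of 20 genes. The median mean level was 9.39, 71.8, 4.25 and 5.06 FPKM, against 676 FPKM for cytosolic members. The log2(FPKM + 1) scale compresses the spread of low genes.

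The members also share short mRNAs, and the spread went with length. The median annotated principal transcript had 756 bases for cytosolic and 1280 bases for mitochondrial members, against 2724 for other tested protein coding genes. Across genes, which are not independent replicates, Spearman's rho of the SD with this length was -0.46 over 84 cytosolic members, -0.45 over 77 mitochondrial members and -0.28 over 9394 other protein coding genes. All points come from the same 9 libraries. The SD also went with level. Its rho with the log2 mean FPKM was 0.72 in the mitochondrial class, 0.35 in the cytosolic class and 0.24 over the other genes. With the length of the coding sequence the rho was -0.73, -0.60 and -0.26 in the same order. In the mitochondrial class the rhos with level and with coding length were both larger in size than that with transcript length. In the bin of over 600 to 1000 bases the median SD was 1.34 for 37 cytosolic, 1.03 for 22 mitochondrial and 0.83 for 528 other genes. In the bin of over 1000 to 2000 bases it was 1.204 for 15 cytosolic, 0.57 for 28 mitochondrial and 0.36 for 2342 other genes. In all 5 length bins the cytosolic members had the largest and the other genes the smallest median, although some bins held few members. The bin above 4000 bases held 1 cytosolic member and that of over 2000 to 4000 bases held 3. The bin up to 600 bases held 3 mitochondrial members. When a smooth trend on transcript length was removed from each library, the range of the class medians shrank to 2.603-fold for the cytosolic and 1.76-fold for the mitochondrial class.

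**Figure D3:**
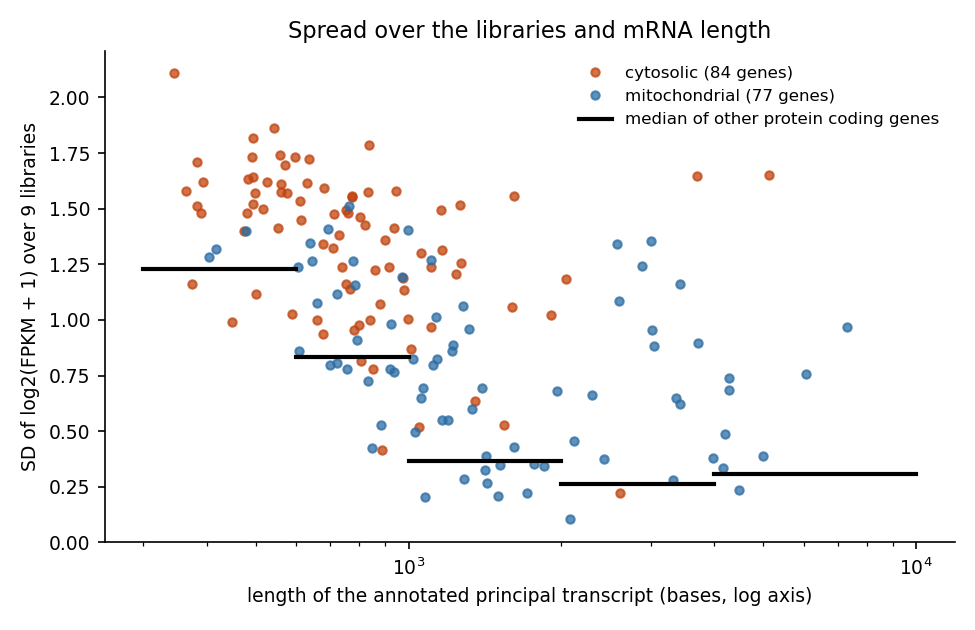
SD of log2(FPKM + 1) over the 9 libraries against the length of the annotated principal transcript (bases, log axis) for 84 cytosolic and 77 mitochondrial genes; black lines are medians of other protein coding genes in 5 length bins. The SD goes down with length in each set (rho of -0.46, -0.45 and -0.28), and most cytosolic points lie above the black lines.

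Among the cytosolic members, the most abundant transcript was Rpl41 (ENSMUSG00000093674, mm10 chr10:128548114-128549305, minus strand), which encodes a very short basic protein of the large subunit. Its level was 1070, 2299 and 684 FPKM on cpTi, 13792, 1950 and 3737 FPKM on Ta0, and 3501, 293 and 14708 FPKM on Ta3. The highest library exceeded the lowest 50.2-fold, both were Ta3 libraries, and the 3 materials overlapped. Next by mean level came Rpl36 (2840 FPKM), Rpl19 (2610 FPKM) and Rps3a1 (2496 FPKM), with Rps14 at 2160 FPKM, and their highest libraries exceeded the lowest by 35.5-fold, 21.9-fold, 11.2-fold and 42.3-fold. Rps6, the subunit protein that S6 kinases phosphorylate, had 528, 750 and 316 FPKM on cpTi, 2503, 703 and 1104 on Ta0, and 897, 239 and 1658 on Ta3. Rpsa, the small subunit protein also known as the laminin receptor, varied 8.78-fold, from 204 to 1788 FPKM.

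Rps27, a zinc-finger protein of the small subunit, had the largest spread of all 162 tested members. It had 276, 725 and 239 FPKM on cpTi, 2379, 533 and 1021 on Ta0, and 722, 17.5 and 2142 on Ta3. The single value of 17.5 FPKM in Ta3 replicate 2 set the 136-fold range, and in that library Rps27 stood 2.36 below the median deviation of its class on the log2 scale, while in the other libraries it lay between -0.16 and 0.51 of it. Of the 50-base stretches of its mRNA, 98.7% also occur in transcripts of other genes, so its reads may be shared with copies and its level is uncertain. Rps27rt, an intronless copy for which the figure is 91.1%, had 202 FPKM in the same library. Rps27l, the p53-inducible relative of Rps27, varied 33.7-fold. Rpl37 (46.4-fold) and Rps12-ps3 (35.9-fold) had the other large spreads, and Rps12-ps3 has all of its 50-base stretches in other genes.

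The 4 steadiest cytosolic members at 10 FPKM or more had transcripts of 2606 (Rpl7l1), 1538 (Rpl4), 1351 (Rpl3) and 851 bases (Rpl8). Rpl7l1, a relative of Rpl7 with a role in making the large subunit, had 31.1, 35.5 and 24.3 FPKM on cpTi, 34.4, 31.3 and 33.9 on Ta0, and 25.2, 25.5 and 36.4 on Ta3, a 1.49-fold range. Rpl4 had 509, 623 and 376 FPKM on cpTi, 903, 620 and 758 on Ta0, and 522, 340 and 1011 on Ta3, a 2.97-fold range, and Rpl3, of the peptidyl transferase region, varied 3.47-fold. Rpl8 varied 5.08-fold. In the library where the class as a whole was lowest, Ta3 replicate 2, these genes stood above the median deviation of their class by 2.14 (Rpl7l1), 1.59 (Rpl4), 1.48 (Rpl3) and 1.62 (Rpl8). After the median deviation of the class was taken away from each library, the median SD of the cytosolic members was 0.28, against 1.42 before.

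Paralogs that replace a subunit protein in some tissues were low, or followed the class. Rpl22 averaged 254 FPKM and Rpl22l1 50.8 FPKM, and they varied 22.3-fold and 32.8-fold. Rpl39 averaged 502 FPKM where Rpl39l, known from testis, averaged 1.84 FPKM. Rpl3l, known from muscle, averaged 0.757 FPKM and did not pass the filter, and Rpl10l, known from testis, was listed at 0 in every library. Rps19bp1, whose name fits the rule although it encodes a binding partner of Rps19 and not a subunit protein, varied 7.68-fold.

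Some subunit genes were listed at levels far below their class. Rps10 averaged 0.957 FPKM, Rpl24 2.34 FPKM and Rpl13a 9.48 FPKM, where the median cytosolic member averaged 676 FPKM. Rpl36al, at 0.829 FPKM, and Mrpl53, listed at 0 in every library, did not pass the filter. In the annotation, 20.6% of the exon bases of Rps10, 47.0% of Rpl24, 35.4% of Rpl13a, 24.5% of Rpl36al and 88.0% of Mrpl53 also belong to another gene on the same strand. The overlapping protein coding or processed transcripts RPS10-NUDT3, Gm28037, Gm45713 and Gm49383 were all listed at 0, and Gm42688, which overlaps Mrpl53, averaged 0.279 FPKM. The levels of these 5 subunit genes are uncertain, and the part of the overlap in them was not tested. Of the other members with such overlap, Mrps34 (37.0%) averaged 18.8 FPKM and Mrps18c (23.2%) 80.6 FPKM. Shared sequence was common in the cytosolic class, where 53 of 89 genes had over 50% of their 50-base stretches in other genes, and rare in the mitochondrial class, with 5 of 78. The other cytosolic genes that did not pass the filter were Rpl13a-ps1 and Rpl36-ps4, both listed at 0, and Rpl9-ps1, at 0.0176 FPKM, and 8 members in all carry a pseudogene name with a protein coding biotype.

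Among the mitochondrial members, the small subunit gene Mrps21 was the most abundant, with 68.3, 109 and 41.0 FPKM on cpTi, 358, 76.1 and 151 on Ta0, and 122, 36.8 and 518 on Ta3. Mrpl20, of the large subunit, had the largest spread of the class, with 65.7, 119 and 33.8 FPKM on cpTi, 386, 83.5 and 174 on Ta0, and 124, 14.9 and 389 on Ta3. Both were highest in Ta3 replicate 3, then in Ta0 replicate 1, and lowest in Ta3 replicate 2, and their materials overlapped. Mrpl23, Mrps24 and Mrpl33 varied 20.2-fold, 22.04-fold and 28.3-fold, and the abundant Mrpl52, Mrpl41 and Mrpl54 17.7-fold, 19.1-fold and 14.1-fold. Mrps12, a relative of the bacterial decoding-centre protein S12, varied 5.71-fold, and Mrpl12, of the stalk of the large subunit, 7.44-fold. Mrpl58, a peptidyl-tRNA hydrolase built into the large subunit, varied 11.4-fold.

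Other mitochondrial members barely moved. Mrpl10 had 14.5, 13.5 and 11.9 FPKM on cpTi, 12.9, 14.7 and 12.1 on Ta0, and 13.02, 16.5 and 19.9 on Ta3, a 1.68-fold range. Mrpl4 had 16.4, 15.5 and 13.8 FPKM on cpTi, 23.2, 17.0 and 14.9 on Ta0, and 16.1, 18.4 and 25.7 on Ta3. In Mrpl10, Ta3 replicate 2 was the second highest library, and Ta0 replicate 1 was not raised. Mrpl44 and Mrpl38 varied 1.78-fold and 1.91-fold. The least abundant tested members of the class, Mrps35, Mrps30 and Mrps5, varied 2.73-fold, 2.21-fold and 1.92-fold at means of 2.20 to 4.01 FPKM, on a log2(FPKM + 1) scale that compresses low values. The median SD of the class fell only from 0.78 to 0.38 when its median deviation was taken away from each library, where the cytosolic value went from 1.42 to 0.28.

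**Figure D4:**
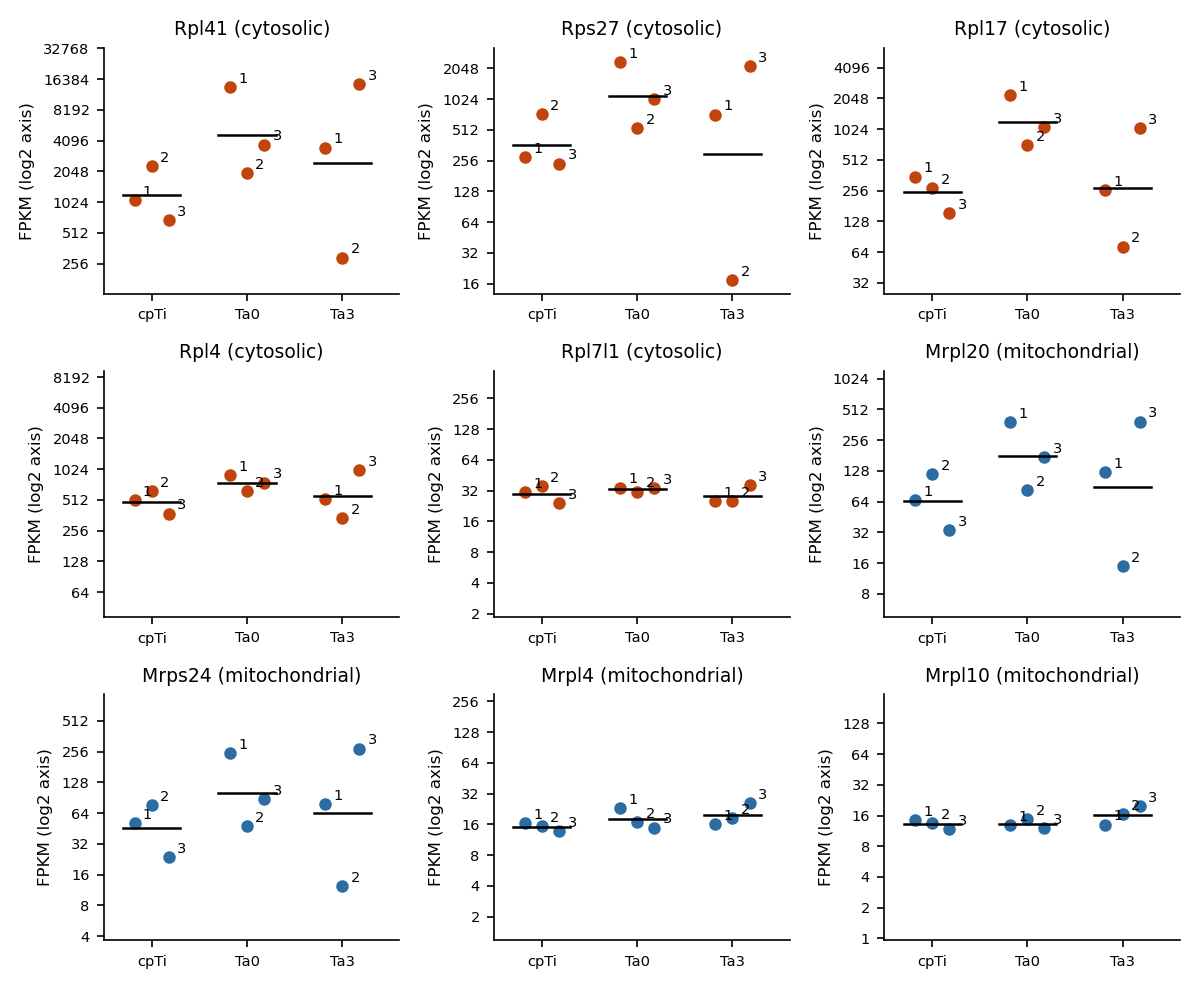
FPKM (log2 axis, each panel spanning the same 256-fold) of 9 ribosomal protein genes by material; points are libraries with their replicate number and black lines geometric means over 3 libraries. Rpl41, Rps27, Rpl17, Mrpl20 and Mrps24 are highest in Ta0 replicate 1 or Ta3 replicate 3 and lowest in Ta3 replicate 2, and Rpl4, Rpl7l1, Mrpl4 and Mrpl10 stay within 2.97-fold.

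The first comparison between materials asked how the tantalum-free glass differed from titanium. No cytosolic or mitochondrial member was called by limma at an adjusted p under 0.05 (Benjamini-Hochberg over all tested genes), where 46 of all 10858 genes were (0.424%), 5 higher (0.046%) and 41 lower on Ta0 (0.378%). The smallest adjusted p of a member was 0.750 in both classes, 2 cytosolic and 0 mitochondrial members had an unadjusted p under 0.05 (5.498% of all tested genes did), and limma-voom on rebuilt reads called 0 members. The log2 differences themselves were mostly above 0, in 85 of 85 cytosolic and 72 of 77 mitochondrial members, with medians of 1.46 and 0.69 against 0.00 over all tested genes. In 11 of 85 cytosolic members (12.9%) and 3 of 77 mitochondrial members (3.896%) all Ta0 libraries were above all cpTi libraries, against 6.31% of all tested genes. Mrps2 was the single member with all Ta0 libraries below, against 10.2% of all tested genes.

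Rpl17, of the large subunit near the peptide exit tunnel, had the smallest p. Of the 50-base stretches of its mRNA, 78.65% also occur in transcripts of other genes, so its level is uncertain. Rpl17 had 351, 273 and 155 FPKM on cpTi, 2221, 721 and 1069 on Ta0, and 259, 72.5 and 1051 on Ta3. All Ta0 libraries exceeded all cpTi libraries, and the difference of 2.28 ± 0.90 on the log2 scale (SE) had an unadjusted p of 0.0337 and an adjusted p of 0.750 in limma. Rps27rt was next, with 215, 324 and 184 FPKM on cpTi and 1503, 636 and 593 on Ta0, a difference of 1.82 ± 0.72 (adjusted p = 0.750 in limma). In the mitochondrial class Mrps25 (1.00 ± 0.50) and Mrpl34 (1.08 ± 0.60) came first, both with overlapping materials and an adjusted p of 0.750 in limma. Mrps36, first described as a mitochondrial ribosomal protein and now known from the 2-oxoglutarate dehydrogenase complex, had 23.9, 28.9 and 15.7 FPKM on cpTi and 76.4, 30.2 and 37.0 on Ta0, without overlap.

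Single libraries carried much of these differences. Without Ta0 replicate 1 the class medians for Ta0 against cpTi were 0.85 and 0.35 (cytosolic, then mitochondrial), and without cpTi replicate 3 they were 1.10 and 0.38. Without Ta0 replicate 2 the mitochondrial median was 1.05. With the FPKM total of each library made equal, which moved the median of all tested genes to -0.48, the class medians were 0.84 and 0.12, that is 1.32 and 0.60 above it. With each library's slope on gene length as a covariate they were 0.17 and -0.03, so the sign of the mitochondrial median turned, and with a trend on transcript length removed they were 0.54 and 0.23.

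The comparison of the tantalum glass with titanium, which uses the same cpTi libraries, showed smaller differences and no call. Limma called 52 of all tested genes (0.479%), 3 higher (0.0276%) and 49 lower (0.451%), and 0 members, with a smallest adjusted p of 0.874 in the cytosolic and 0.873 in the mitochondrial class, 0 members at an unadjusted p under 0.05 (6.99% of all tested genes), and 0 members with limma-voom. The median log2 difference was 0.62 over cytosolic and 0.27 over mitochondrial members, above 0 in 83 of 85 and 60 of 77, and against 0.02 over all tested genes. In 0 members did Ta3 lie wholly above or below cpTi, against 3.47% and 8.22% of all tested genes. Rps27rt (1.11 ± 0.72, adjusted p = 0.874) and Rps15 (1.11 ± 0.82, adjusted p = 0.909) had the smallest p of the cytosolic class in limma. Mrpl4 (0.35 ± 0.23, adjusted p = 0.873) and Mrpl10 (0.27 ± 0.19, adjusted p = 0.892) had the smallest of the mitochondrial class. The direction rested on 1 library. Without Ta3 replicate 3 the medians were -0.25 and -0.25, without Ta3 replicate 2 they were 1.73 and 0.74, without cpTi replicate 3 they were 0.24 and 0.02, and without cpTi replicate 2 they were 1.00 and 0.49. With the slope on gene length as a covariate they were 0.25 and 0.09, with a trend on transcript length removed 0.23 and 0.12, and at equal FPKM totals 0.46 and 0.11, where the median of all tested genes was -0.09.

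With this slope as a covariate, the cytosolic members called for Ta3 against cpTi were 2, Rps15 (0.83 ± 0.21, adjusted p = 0.0487 in limma) and Rpl9-ps6 (0.91 ± 0.22, adjusted p = 0.0491), in a fit that called 583 of all tested genes. Rps15, a small subunit protein close to the decoding site, had 708, 1085 and 515 FPKM on cpTi and 1293, 584 and 5318 on Ta3, and these groups overlap. Rpl9-ps6 shares 89.2% of its 50-base stretches with other genes.

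Between the glasses, limma called 0 of all tested genes (0%), so no member could differ by that rule. The smallest adjusted p was 0.846 in both classes, 1 cytosolic and 0 mitochondrial members had an unadjusted p under 0.05 (4.26% of all tested genes did), and limma-voom called 0. The median log2 difference of Ta3 minus Ta0 was -0.87 over cytosolic and -0.47 over mitochondrial members, against -0.04 over all tested genes, and 83 of 85 and 73 of 77 members were below 0. No member's groups were apart, against 4.10% of all tested genes higher and 4.87% lower on Ta3. Rpl17 again had the smallest p (-2.14 ± 0.90, adjusted p = 0.846 in limma), followed by Rps29 (-1.46 ± 1.05), and in the mitochondrial class by Mrps9 (-0.49 ± 0.28) and Mrps15 (-0.88 ± 0.53). Without Ta3 replicate 2 the class medians were 0.25 and 0.08, without Ta0 replicate 1 they were -0.25 and -0.08, without Ta0 replicate 2 they were -1.38 and -0.80, and without Ta3 replicate 3 they were -1.81 and -0.96. With the slope on gene length as a covariate both signs turned, to 0.07 and 0.08, and a trend on transcript length removed left -0.29 and -0.17. At equal FPKM totals they were -0.42 and -0.06, where the median of all tested genes was 0.33. Without both Ta0 replicate 1 and Ta3 replicate 3, the libraries with the fewest genes above 0 FPKM, the medians were 0.85 and 0.35 for Ta0 against cpTi, -0.25 and -0.25 for Ta3 against cpTi, and -1.15 and -0.59 for Ta3 minus Ta0. That fit took out the libraries where both classes were highest and kept Ta3 replicate 2, where both were lowest.

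**Figure D5:**
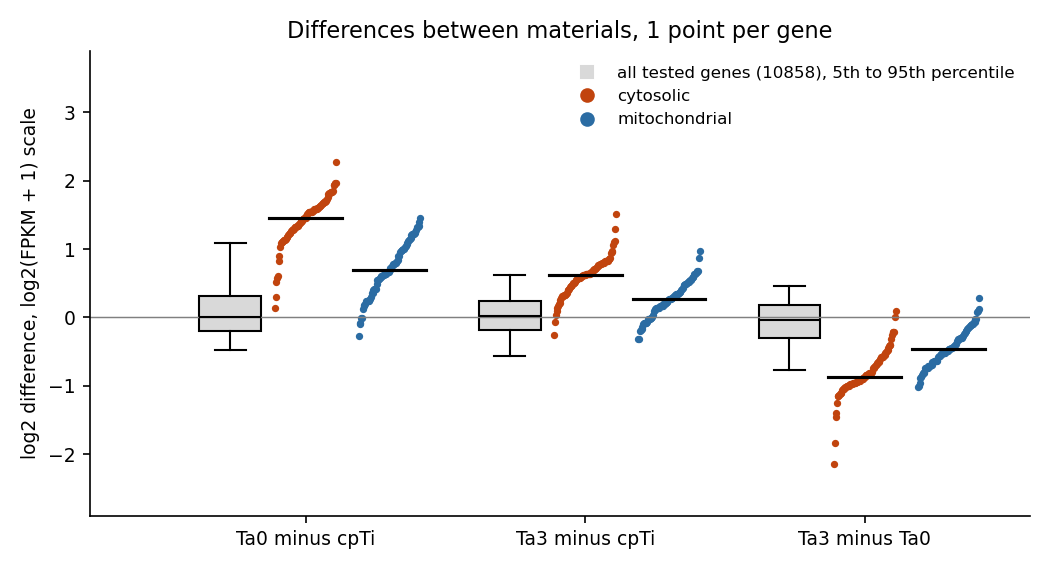
Log2 difference in log2(FPKM + 1) between materials for all tested genes (grey boxes with quartiles, whiskers from the 5th to the 95th percentile) and for each of the 85 cytosolic and 77 mitochondrial genes (points in order of size, black lines the class medians). The class medians are 1.46 and 0.69 for Ta0 minus cpTi, 0.62 and 0.27 for Ta3 minus cpTi, and -0.87 and -0.47 for Ta3 minus Ta0, with 0 of these genes called in any of them.

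Most subunit proteins whose symbols lie outside the rule also had wide ranges over the libraries. Rplp1, of the acidic stalk of the large subunit, had 2077, 4350 and 1379 FPKM on cpTi, 19461, 3560 and 6732 on Ta0, and 5510, 684 and 18206 on Ta3, a 28.4-fold range. Its stalk partners Rplp2 and Rplp0 varied 7.74-fold and 4.09-fold, Fau, which encodes a small subunit protein fused to a ubiquitin-like protein, 20.6-fold, and Rack1, a scaffold on the small subunit, 8.87-fold. On the mitochondrial side Gadd45gip1, a large subunit protein, varied 10.5-fold, but Dap3, a GTP-binding protein of the small subunit, 2.04-fold and Ptcd3, a small subunit protein with pentatricopeptide repeats, 1.41-fold. None of these genes was called in any comparison, where at most 0.479% of all tested genes were.

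Genes that act on ribosomes or on growth signalling to them, and the mitochondrially encoded genes, were also not called. Over all tested genes 0.424% were called for Ta0 minus cpTi, 0.479% for Ta3 minus cpTi and 0% for Ta3 minus Ta0. A count of 0 is near these shares in lists of this size. The counts in each comparison were 0 of 27 for ribosome biogenesis, 0 of 12 for growth signalling, 0 of 12 for cytosolic translation factors, 0 of 12 for mitochondrial translation factors, 0 of 20 for mitochondrial ribosome assembly and 0 of 12 for mitochondrially encoded genes. Their median log2 differences for Ta0 minus cpTi were 0.13, -0.15, 0.42, 0.13, 0.07 and -0.17 in that order, and for Ta3 minus cpTi 0.07, 0.14, 0.22, -0.10, 0.03 and -0.43. For Ta3 minus Ta0 they were -0.08, 0.22, -0.14, -0.19, -0.19 and -0.29. The genes of each list with the smallest unadjusted p in any comparison are given in the comparison that picked them. Of the biogenesis genes these were Rrs1, a large subunit assembly factor (0.35 ± 0.16), and Nop58, a box C/D snoRNP protein (-0.41 ± 0.19), both for Ta3 minus Ta0, where their groups did not overlap (adjusted p = 0.846 in limma). All Ta3 libraries of Eif3f, a subunit of initiation factor 3, lay above all cpTi libraries (0.49 ± 0.21, adjusted p = 0.668 in limma), and all Ta0 libraries of Eef1g, a subunit of elongation factor 1, lay above all cpTi libraries (0.78 ± 0.39, adjusted p = 0.750 in limma). Of the signalling list they were the S6 kinase genes Rps6ka1, for Ta3 minus Ta0 with overlapping groups (0.41 ± 0.22, adjusted p = 0.846 in limma), and Rps6kb1, for Ta3 minus cpTi without overlap (-0.27 ± 0.15, adjusted p = 0.816 in limma).

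Among the mitochondrial ribosome's partners, Taco1, a translational activator of the COX1 mRNA, was lower on Ta3 than on Ta0 in all libraries (-0.55 ± 0.20, adjusted p = 0.846 in limma). Gfm2, a ribosome recycling factor, differed by 0.37 ± 0.16 for Ta3 minus cpTi with overlapping groups (adjusted p = 0.693 in limma). Of the assembly genes Rbfa, a small subunit maturation factor, came first for Ta0 minus cpTi (0.39 ± 0.22, adjusted p = 0.750 in limma) and Mterf4, which guides rRNA methylation, for Ta3 minus Ta0 (-0.45 ± 0.26, adjusted p = 0.846 in limma), both with overlapping groups. All 12 mitochondrially encoded genes were below 0 for Ta3 minus cpTi, and none was called. Among them mt-Atp6, an ATP synthase subunit, had 8.93, 10.6 and 9.78 FPKM on cpTi and 6.36, 8.51 and 6.31 on Ta3 (-0.43 ± 0.17, adjusted p = 0.629 in limma). In mt-Co2, a cytochrome c oxidase subunit, the values were 41.3, 50.3 and 35.1 on cpTi and 28.8, 34.6 and 28.4 on Ta3 (-0.44 ± 0.22, adjusted p = 0.767 in limma). The levels of mt-Atp6 and mt-Co2 were far below the median mean of 322 FPKM over the 12 genes, and the reason was not tested. In both genes every Ta3 library lay below every cpTi library, and mt-Co2 was also below Ta0 (-0.52 ± 0.22, adjusted p = 0.846 in limma).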

How the data were processed

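The authors deposited 1 table of FPKM per gene and library, that is fragments per kilobase of the gene after scaling of each library. Per the submitters' processing notes, the tools were DESeq2 1.20.0, featureCounts 1.5.0-p3, HISAT2 2.0.5, CASAVA 1.8 and fastp, with GRCm38 (mm10). The role of each tool and the strand setting are not given in the sources used here, so reads of overlapping genes and near-identical copies cannot be assigned with certainty. FPKM times gene length gave whole reads for 100% of values within 0.05 reads. The library scale behind the deposited FPKM ran from 9078170 to 21911078 reads and was not the read total.

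A gene was tested where 3 or more of the 9 libraries had 1 FPKM or above. The test was limma 3.58.1 (R 4.3.3) on log2(FPKM + 1), a scale that understates differences of low genes, with a mean for each material, all 9 libraries and a mean-variance trend. P-values in the text are two-sided and adjusted by Benjamini-Hochberg over all tested genes, with calls at 0.05. The fit was also run on simulated reads with known changes. These were drawn independently for each gene, without the shifts shared by many genes of a library seen here. That run therefore cannot show how the fit behaves on these libraries. Class medians, ratios, spreads and shared sequence are descriptions. Gene and transcript features came from GENCODE M21, where 54495 gene IDs were found, and promoters from RefSeq.

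Named genes were those called, the 5 highest and 3 lowest by mean level and the 4 largest and 4 smallest by spread (at a mean of at least 10 FPKM) in each class, the 2 smallest p per class and comparison, a fixed set (Rps6, Rpsa, paralogs, stalk and other subunit genes), and in each other list the 2 smallest p. A gene of this rule is not reported here. Genes with low levels or exon overlap, and values relative to the class median, were chosen after values were seen. The members and lists were chosen with earlier results of these data known. Alternatives changed the pseudocount, filter, scaling, libraries, replicate block, length terms and membership.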

Additional observations from a re-analysis of the deposited data

How the results depend on the processing

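Over 312 values recomputed for calls, class medians and class shares under 21 settings of the fit, 311 stayed within the spread between replicates or kept the same number of calls, and 1 moved, the cytosolic members called for Ta3 against cpTi, which were 2 with the length slope as a covariate and 0 otherwise. That spread was wide, with a pooled SD of the class median within a material of 1.43 (cytosolic) and 0.78 (mitochondrial) on the log2 scale. Changes of sign therefore counted as staying. The cytosolic median for Ta3 against cpTi, for example, was 0.62 with all libraries and -0.25 without Ta3 replicate 3. The count of 311 is thus no measure of how stable the class medians were. Rps15 passed the threshold in that fit, at a log2 difference of 0.83 for Ta3 minus cpTi. The cause was not tested. With the replicate number as a block 0 members were called, the class medians were unchanged (1.46 and 0.69 for Ta0 against cpTi), and the counts over all genes were 4 and 4 against cpTi instead of 46 and 52. The correlations of deviations between same-numbered libraries ran from -0.82 to 0.85, so the numbers were not taken to pair the samples. Other counts over all genes that moved by over 1.5 times were, for Ta0 and for Ta3 against cpTi, 27 and 29 with a pseudocount of 0.1, 28 and 21 without a filter, 11 and 11 at a common FPKM total, 246 and 583 with the length slope, and 79 and 86 with a trend on gene length removed. They were 125 and 176 with a trend on transcript length removed, 7 to 84 and 8 to 30 without single libraries, and 20 and 18 without Ta0 replicate 1 and Ta3 replicate 3. For Ta3 against cpTi they were 7 with only the 6 libraries compared, 31 with a filter at 5 FPKM and 31 with limma-voom. Between the glasses the count was 0 in each of these fits. The removals of the trend on transcript length, of Ta0 replicate 1 together with Ta3 replicate 3, and of the members with pseudogene names were chosen after seeing the data. Depth limits the lowest members most, as Rpl39l rested on 3 to 44 reads per library.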
